A study of Mus musculus with 20 samples.

Results

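Glucose enters a retinal cell through a transporter, is broken down to pyruvate by glycolysis, and leaves as lactate or is oxidised in the mitochondrion. The transcripts of 40 genes listed by name for these steps, for the pentose phosphate pathway and for glycogen breakdown were followed across the layers of the mouse retina. A listed gene was measured when at least 1 probe set of the array carried its symbol and no other symbol, which held for 35 of the 40. Gpi1, Pfkfb1, Gapdh, Eno1 and G6pdx had no such probe set and were not analysed here. Testing required a log2 intensity over 5 in at least 2 of the 20 arrays, and 33 of the 35 passed, among 15057 genes tested on the array. The lactate carrier gene Slc16a7 and the kinase gene Pdk4 did not pass, with second-highest intensities of 20.1 and 23.4. Just inside the filter were Pfkfb3, with a second-highest intensity of 42.7, and Pdk3, with 45.6.

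The RNA came from C57BL/6 mice of 7 to 8 weeks with no mutation or transgene named in the labels. Dark-adapted mice spent 3 h in a chamber with at most 0.4 lux, and light-adapted mice had 6 h of a light phase at 450 lux. In both states the whole retina was sampled beside 4 layers cut out by laser capture microdissection: the photoreceptor layer (cell bodies with outer and inner segments) and the inner nuclear, inner plexiform and ganglion cell layers. There were 2 arrays for each of these 10 groups. The labels name no animal behind an array, so the p-values rest on the spread between samples of a group, which may be technical. A dissected layer holds several cell types, and fewer cells of a type cannot be told apart from less RNA per cell.

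Median intensities of the arrays ran from 37.5 to 40.8, with correlations across genes of 0.851 to 0.956 between the 2 arrays of a group. The photoreceptor and ganglion cell layers carried the markers of their labelled cells, and the inner nuclear layer did so in part. The summed intensity of 9 rod and cone markers was 6333 to 6947 in the photoreceptor layer and 5220.0 to 5915 in the whole retina, against 589.2 to 2268 in the other 3 layers. All 9 of these markers tested were higher in the photoreceptor layer, and all 7 ganglion cell markers tested were higher in the ganglion cell layer. In the inner nuclear layer 4 of 7 bipolar and 2 of 8 Müller glia markers were higher, against 0.252% of all genes. There 0 of 8 amacrine and 0 of 4 horizontal cell markers were higher. In the inner plexiform layer 3 of 8 amacrine and 2 of 7 bipolar markers were higher, against 8.29% of all genes. Markers of the pigment epithelium, which lies against the photoreceptors, showed 0 of 7 tested genes higher or lower in any layer, and its visual cycle enzyme gene Rpe65 stayed at 5.7 to 12.2 in all 20 arrays. The 2 light-adapted inner plexiform layer arrays stood apart, with median correlations of 0.738 and 0.768 with arrays of other groups against 0.817 to 0.876 for the other dissected arrays, and 5 light-adapted arrays carried signal on Y-linked probe sets that no dark-adapted array had. Both sets were left out in turn below where that changed a count.

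Photoreceptors are known for aerobic glycolysis: they turn much of their glucose into lactate even when oxygen is present. Hexokinase traps glucose in the cell, phosphofructokinase commits the sugar to glycolysis, and the bifunctional PFKFB enzymes make and remove the small sugar phosphate that activates phosphofructokinase. Lactate dehydrogenase joins pyruvate and lactate, and the monocarboxylate transporters carry lactate across the plasma membrane with basigin as their chaperone. The pyruvate dehydrogenase kinases hold back pyruvate dehydrogenase, which acts on pyruvate inside the mitochondrion.

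The 4 photoreceptor layer arrays were set against the 12 arrays of the other 3 layers, each layer with equal weight. Of the 33 genes, 9 were higher there: Hk2, Pfkl, Pfkfb2, Pgk1, Pgam1, Pkm, Ldha, Slc16a1 and Bsg. By the known roles of their products they fall in glucose trapping, phosphofructokinase and its control, lower glycolysis, lactate dehydrogenase and lactate transport. No flux was measured. Pfkm and Tkt were lower. The 11 called genes (adjusted p under 0.05) compare with 12.9% of all genes called in this comparison (7.26% higher and 5.69% lower). The median log2 difference was 0.15 over the 33 genes and -0.06 over all genes tested. Of the 11, 5 remained without the 5 arrays with Y-linked signal: Hk2, Pfkfb2, Pgam1, Ldha and Slc16a1. Leaving out replicate 2 of the light-adapted photoreceptor arrays gave 7 called genes, and so did leaving out replicate 1 of the dark-adapted ones. Hk2, Pfkfb2, Ldha and Slc16a1 were called under all 32 alternative settings run on them. Of these, Slc16a1 passed the filter for testing only through the photoreceptor layer and the whole retina.

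A stricter count asked which genes were higher in the photoreceptor layer than in each other layer taken singly. There were 5, namely Hk2, Pfkfb2, Ldha, Slc16a1 and Bsg, against 3.06% of all genes tested. Bsg was included by a call against the inner plexiform layer that lay near the threshold (log2 difference 0.49, adjusted p = 0.049). That call was kept in 9 of 32 alternatives. None of the 33 was lower there than in each other layer, against 0.511% of all genes. With both light-adapted inner plexiform arrays left out, 3 of the 5 remained, Hk2, Pfkfb2 and Slc16a1, and the same 3 remained when replicate 2 of the light-adapted photoreceptor group was left out.

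The promoters of the 4 genes called under every setting are shown with that of Eno2, the neuronal enolase gene that was highest in the ganglion cell layer, so that the sequences around their start sites can be compared. Each run holds 250 bases before and 50 after the RefSeq start site (GRCm38.p6), 5′ to 3′ on the gene's strand. Capitals mark ACGTG, the core of the hypoxia response element, on either strand (CACGT is its reverse complement). The same core lies inside the E-box CACGTG, which is a palindrome and so counts on both strands.
Hk2 promoter (chr6:82774405-82774704, minus strand): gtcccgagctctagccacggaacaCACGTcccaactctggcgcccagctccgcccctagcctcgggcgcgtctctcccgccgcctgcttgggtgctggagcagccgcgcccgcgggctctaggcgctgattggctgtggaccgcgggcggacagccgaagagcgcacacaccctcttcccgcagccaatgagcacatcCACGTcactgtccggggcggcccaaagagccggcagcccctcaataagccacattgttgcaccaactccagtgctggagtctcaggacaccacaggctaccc
Pfkfb2 promoter (chr1:130715772-130716071, minus strand): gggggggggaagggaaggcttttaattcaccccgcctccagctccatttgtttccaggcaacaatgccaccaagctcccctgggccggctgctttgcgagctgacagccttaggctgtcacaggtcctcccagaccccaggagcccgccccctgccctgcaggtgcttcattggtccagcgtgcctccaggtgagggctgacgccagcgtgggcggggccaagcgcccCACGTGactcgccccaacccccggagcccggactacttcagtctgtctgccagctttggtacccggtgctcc
Ldha promoter (chr7:46845554-46845853, plus strand): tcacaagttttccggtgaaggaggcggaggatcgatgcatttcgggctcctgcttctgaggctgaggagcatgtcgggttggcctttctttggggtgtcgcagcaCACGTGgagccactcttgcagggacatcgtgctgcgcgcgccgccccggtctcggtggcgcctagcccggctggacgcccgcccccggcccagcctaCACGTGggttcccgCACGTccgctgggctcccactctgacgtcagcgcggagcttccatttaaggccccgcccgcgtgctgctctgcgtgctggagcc
Slc16a1 promoter (chr3:104638414-104638713, plus strand): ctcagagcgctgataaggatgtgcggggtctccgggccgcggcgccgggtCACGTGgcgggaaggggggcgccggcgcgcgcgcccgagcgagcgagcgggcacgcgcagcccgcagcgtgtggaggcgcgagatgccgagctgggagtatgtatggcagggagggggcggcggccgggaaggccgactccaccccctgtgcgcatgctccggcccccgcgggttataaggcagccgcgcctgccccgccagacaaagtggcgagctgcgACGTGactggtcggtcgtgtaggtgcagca
Eno2 promoter (chr6:124769624-124769923, minus strand): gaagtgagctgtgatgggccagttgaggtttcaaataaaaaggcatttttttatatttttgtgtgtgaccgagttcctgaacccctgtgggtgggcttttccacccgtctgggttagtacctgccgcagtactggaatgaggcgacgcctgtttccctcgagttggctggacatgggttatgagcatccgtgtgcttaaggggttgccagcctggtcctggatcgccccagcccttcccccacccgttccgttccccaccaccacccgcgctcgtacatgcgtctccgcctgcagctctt
Counted this way the core occurred 2 times in the Hk2 window, 2 times in that of Pfkfb2, 5 times in that of Ldha and 3 times in that of Slc16a1, with 0 matches in that of Eno2. Pfkfb2 has 3 start sites in the table and Ldha 2, of which the first listed is shown, for both genes the window with the most matches. The other windows held 0 and 1 matches for Pfkfb2 and 0 for Ldha. Among the 8 photoreceptor-high genes with a promoter in the table (Bsg is not listed) 7 held the core in at least 1 window, or 87.5%. Of the 23 other tested members with a promoter 12 held it, or 52.2%, and of all 27025 genes listed there 21.8% did. Genes differ in their number of windows. Counted by window the shares were 66.7% of 12, 44.1% of 34 and 19.6% of 32851, in the same order. The photoreceptor homeobox core TAATCC was present in 1 of the 8 genes (12.5%), in 5 of the 31 tested members with a promoter (16.1%) and in 8.14% of all genes. These are matches of letters only.

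Of the 2 glucose transporter genes tested neither was called in the photoreceptor layer against the other 3, and Slc2a3 was lower there than in the ganglion cell layer. Slc2a1 encodes GLUT1, the main glucose transporter of photoreceptors and of the pigment epithelium. Its intensities in the photoreceptor layer were 291.8 and 236.5 in dark and 161.3 and 260.9 in light, and in the other 3 layers they had a low of 116.7, a median of 191.3 and a high of 322.5. The groups overlapped, and the log2 difference was 0.29, with a 95% interval of -0.19 to 0.78. Slc2a3, the gene of the neuronal transporter GLUT3, was at 22.0 to 27.2 in the photoreceptor layer and at 38.2 to 51.0 in the ganglion cell layer, with no overlap. That pair of layers differed by -0.76 ± 0.21 (SE of the log2 difference, adjusted p = 0.036, n = 4 against 4).

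Hexokinase gave the largest difference of the 33 genes. Hk2, the inducible isozyme that sits on the outer mitochondrial membrane, was at 302.2 and 286.7 in the dark-adapted photoreceptor layer and at 220.3 and 292.8 in the light-adapted one. In the other 3 layers it ran from 25.2 through a median of 54.2 to 90.8. Every photoreceptor array stood above every array of the other layers, and the mean was 5.27-fold higher (log2 difference 2.40 ± 0.19, adjusted p = 2.5e-07). Over the inner nuclear, inner plexiform and ganglion cell layers singly the differences were 2.45 ± 0.23, 1.98 ± 0.23 and 2.76 ± 0.23. Across the inner layers Hk2 was at 33.6 to 63.6 in the inner nuclear, 42.0 to 90.8 in the inner plexiform and 25.2 to 58.9 in the ganglion cell layer, and these ranges overlapped.

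Hk1, the housekeeping isozyme of brain and retina, had probe sets that disagreed. The brighter one, at 389.5 to 1140.2, is listed with 1 accession that 18 probe sets share, and 16 of those carry the ribosomal protein gene Rpl17 among their symbols. By the rule of taking the brightest probe set it stood for Hk1 in the counts, and its difference in the photoreceptor layer was 0.30 (95% interval 0.01 to 0.58, adjusted p = 0.17). The other probe set is listed with 8 accessions, RefSeq transcripts among them. It was at 401.7 and 331.0 in the dark-adapted and 306.7 and 374.5 in the light-adapted photoreceptor layer. In the inner nuclear layer it was at 131.7 to 198.7, in the inner plexiform layer at 113.5 to 157.0 and in the ganglion cell layer at 119.8 to 196.5. No array of those layers reached the photoreceptor arrays, and this probe set had a difference of 1.28 ± 0.14 in the photoreceptor layer (adjusted p = 9e-06) and of -0.57 ± 0.14 in the inner plexiform layer (adjusted p = 0.014). It was chosen after its values were seen.

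Phosphofructokinase changed in opposite directions by isozyme. Pfkl, the liver type, was at 97.3 and 83.0 in dark and 78.0 and 119.2 in light in the photoreceptor layer, against a low of 55.8, a median of 65.3 and a high of 91.9 in the other layers. The groups overlapped, and the difference of 0.45 ± 0.14 lay near the threshold (adjusted p = 0.045), with the call kept in 11 of 31 alternatives. Pfkm, the muscle type, was at 81.5 and 72.0 in dark and 71.3 and 66.1 in light in the photoreceptor layer, below all 12 arrays of the other layers, which ran from 88.2 through a median of 113.0 to 138.9. Its difference was -0.61 ± 0.13 (adjusted p = 0.0057). Pfkp, the platelet type, was at 225.3 to 309.8 in the photoreceptor layer and at 145.5 to 411.4 in the others, with a difference of 0.14 (95% interval -0.38 to 0.67).

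Of the bifunctional enzymes 1 of 3 was higher in the photoreceptor layer. Pfkfb2, the heart-type isoform, was at 400.7 and 574.2 in dark and 323.6 and 476.4 in light there, and at 52.2, 97.5 and 225.3 (lowest, median, highest) in the other layers. The groups did not overlap, and the mean was 4.43-fold higher (2.15 ± 0.26, adjusted p = 2.9e-05). The highest values outside the photoreceptor layer were 225.3 in replicate 2 of the dark-adapted inner nuclear layer and 169.1 in replicate 2 of the light-adapted ganglion cell layer. The same arrays had the highest rod and cone marker sums outside that layer, 1942 and 2268. Hk2 was at 58.5 and 40.9 in these arrays, within the range of the inner layers. The part of carried-over photoreceptor RNA in the inner-layer values was not tested. Pfkfb3 was at 23.5 to 40.6 in the photoreceptor layer and 20.3 to 41.3 elsewhere, and Pfkfb4 at 28.7 to 37.4 and 25.8 to 48.6, with neither called.

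**Figure D1:**
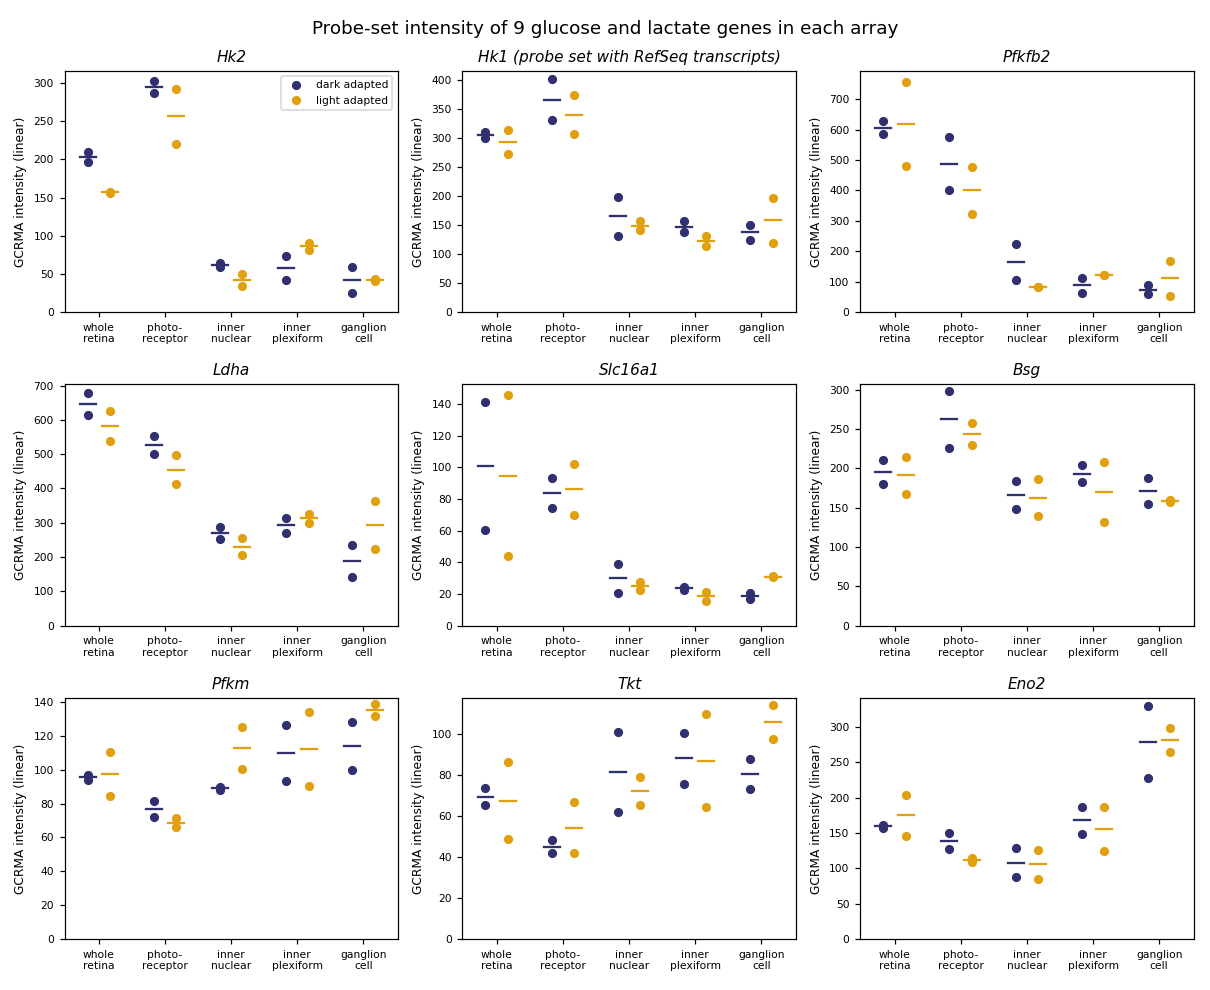
Intensity (linear scale, as deposited) of 8 genes of glucose and lactate metabolism and of the RefSeq-listed probe set of Hk1, 1 point per array, dark-adapted left of light-adapted in each tissue, with the bar at the mean of the 2 arrays. Hk2, Hk1, Pfkfb2, Ldha and Slc16a1 stand highest in the photoreceptor layer among the 4 layers, Pfkm and Tkt lowest by group mean, and Eno2 stands highest in the ganglion cell layer.

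In lower glycolysis 3 of 8 tested genes were higher in the photoreceptor layer and none was lower. Pgk1, whose enzyme makes ATP from a glycolytic intermediate, was at 443.2 and 365.5 in dark and 293.2 and 355.8 in light, against a low of 113.5, a median of 181.9 and a high of 322.6 in the other layers. The lowest photoreceptor array fell within the range of the other layers, and the difference was 0.87 ± 0.21 (adjusted p = 0.0089). Pgam1, a phosphoglycerate mutase gene, was 0.70 ± 0.16 higher, at 389.2 to 563.2 in the photoreceptor layer and 196.4 to 434.6 elsewhere (adjusted p = 0.0064). Pgk1 and Pgam1 each have 3 probe sets with similar values, some of them identical, so that signal of related loci cannot be told apart for them. Pkm, the pyruvate kinase gene, was at 718.1 to 968.2 in the photoreceptor layer and 463.2 to 857.2 elsewhere, a difference of 0.46 ± 0.13 (adjusted p = 0.030) that was 0.35 ± 0.12 on its RefSeq-listed probe set and not called there (adjusted p = 0.066). Aldoa, the aldolase of muscle and most tissues, had a difference of 0.48 (95% interval 0.15 to 0.81, adjusted p = 0.051). The other 4, Aldoc, Tpi1, Pgam2 and Eno2, had differences of -0.30, -0.23, -0.21 and -0.43, none called.

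Lactate dehydrogenase showed the A subunit higher. Ldha, whose subunit favours lactate formation, was at 499.5 and 553.9 in dark and 412.2 and 498.5 in light in the photoreceptor layer. In the other layers its intensities had a low of 142.5, a median of 262.2 and a high of 362.8, all below the photoreceptor arrays. The mean was 1.89-fold higher (0.92 ± 0.14, adjusted p = 3.5e-04). Over the inner nuclear, inner plexiform and ganglion cell layers singly it was higher by 0.97 ± 0.18, 0.69 ± 0.18 and 1.09 ± 0.18. Ldhb, the subunit known for lactate oxidation, was at 59.0 to 78.5 in the photoreceptor layer and 58.9 to 116.6 in the others, with a difference of -0.28 (95% interval -0.53 to -0.03, adjusted p = 0.14). Its dimmer second probe set was at 12.7 to 35.8 in the photoreceptor layer and 24.6 to 70.0 in the others, with overlap. No difference was fitted for that probe set alone.

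Of the lactate carriers and their chaperone, 2 of 4 tested genes were higher in the photoreceptor layer. Slc16a1 encodes MCT1, the widespread lactate carrier. In the photoreceptor layer it was at 93.5 and 74.2 in dark and 70.0 and 102.5 in light, and in the other layers at 15.7, 22.4 and 38.9 (lowest, median, highest). No arrays overlapped, and the mean was 3.55-fold higher (1.83 ± 0.27, adjusted p = 1.9e-04). Bsg, the gene of basigin, was at 298.4 and 226.1 in dark and 257.6 and 229.0 in light in the photoreceptor layer, just above the other layers with a low of 132.2, a median of 170.6 and a high of 208.3. Its difference was 0.58 ± 0.14 (adjusted p = 0.011). Slc16a3, which encodes the export carrier MCT4 of glycolytic cells, was at 100.2 to 128.9 in the photoreceptor layer and 87.5 to 182.2 elsewhere, with a difference of 0.00 (95% interval -0.26 to 0.27). Slc16a8, known as the MCT3 carrier of the pigment epithelium, was at 41.0 to 49.3 and 42.9 to 66.7 in the same groups and was not called.

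Of the genes of pyruvate dehydrogenase and its kinases, 0 of 5 tested were called in the photoreceptor layer. Pdhb, the beta subunit of pyruvate dehydrogenase, was at 57.3 and 90.8 in dark and 43.8 and 77.2 in light there, against 31.3, 45.1 and 70.8 (lowest, median, highest) elsewhere, a difference of 0.55 with adjusted p = 0.054. Against the inner plexiform layer alone it was 0.77 ± 0.22 higher (adjusted p = 0.020), with overlap. Pdha1, the alpha subunit, was at 73.4 to 105.1 in the photoreceptor layer and 77.1 to 136.6 elsewhere. The kinase genes Pdk1, Pdk2 and Pdk3 had differences of -0.22, 0.13 and 0.72, the last with a 95% interval of -0.07 to 1.51.

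The pentose phosphate pathway makes NADPH, which protects against oxidation and serves retinal reduction in photoreceptors. Tkt, the transketolase gene of its non-oxidative branch, was at 48.1 and 42.0 in dark and 41.9 and 66.7 in light in the photoreceptor layer, against a low of 61.9, a median of 83.4 and a high of 114.0 in the other layers. Of the 4 photoreceptor arrays 1 overlapped with the others, and the difference was -0.79 ± 0.19 (adjusted p = 0.010). Müller glia markers moved the same way, with 5 of 8 lower in the photoreceptor layer and sums of 396.2 to 420.7 there. In the other layers these sums were 498.0 to 1340.1. Other inner cell types did so too, with 4 of 7 bipolar, 4 of 8 amacrine and 6 of 7 ganglion cell markers lower. Of horizontal cell and vascular markers 1 of 4 and 1 of 7 were lower, and no astrocyte or microglia marker was called. The part of any of these cell types in the Tkt difference was not tested. Pgd, an oxidative-branch dehydrogenase gene, had a difference of 0.23 (95% interval -0.11 to 0.58). The glycogen phosphorylase genes Pygb, the brain type, and Pygm, the muscle type, differed by -0.04 and 0.15, neither called.

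**Figure D2:**
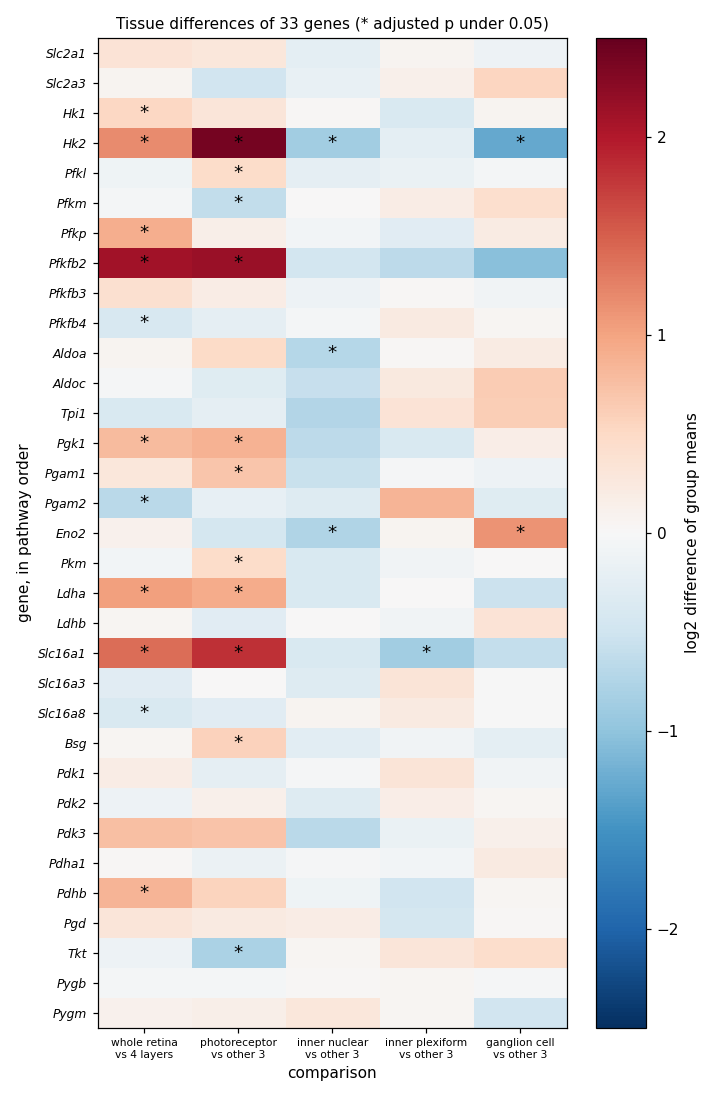
Log2 differences of the 33 tested genes (rows, in pathway order) in 5 tissue comparisons (columns), from blue (lower) through white to red (higher), with an asterisk where the adjusted p was under 0.05. The whole-retina and photoreceptor columns hold 11 asterisks each, the inner nuclear column 3, the inner plexiform column 1 and the ganglion cell column 2; Hk1 is drawn from its brighter probe set.

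The photoreceptor layer was also set against each inner layer singly. Of the 9 genes higher against the mean of the other 3 layers, Hk2, Pfkfb2, Ldha, Slc16a1 and Bsg were called against each. For Bsg the call against the inner plexiform layer was near the threshold (adjusted p = 0.049). Pfkl was called against none of the 3 layers singly. Pgk1 was called against the inner nuclear and inner plexiform layers but not against the ganglion cell layer (adjusted p = 0.27), and Pgam1 and Pkm against the inner nuclear layer alone. Against the inner nuclear layer 9 of 33 genes were called, all higher (5.33% of all genes called, 4.07% higher and 1.26% lower): Hk2, Pfkfb2, Aldoa, Pgk1, Pgam1, Pkm, Ldha, Slc16a1 and Bsg. Aldoa reached 0.90 ± 0.19 there, with 716.2 to 875.4 in the photoreceptor layer and 323.5 to 563.3 in the inner nuclear layer. Against the inner plexiform layer 10 were called, 8 higher and 2 lower, with 21.4% of all genes called (9.68% higher and 11.7% lower), and 3 without the light-adapted arrays of that layer. Against the ganglion cell layer 5 were higher and 4 lower (7.66% of all genes called, 4.57% higher and 3.09% lower). The 4 lower were Slc2a3, Pfkm (-0.77 ± 0.16), Eno2 (-1.16 ± 0.19) and Tkt (-0.91 ± 0.23). These counts were 4, 6 and 5 without the arrays with Y-linked signal, in the order inner nuclear, inner plexiform and ganglion cell layer. The inner nuclear count was also 5 when replicate 2 of the light-adapted photoreceptor group or replicate 1 of either inner nuclear group was left out. The inner plexiform count was 4 when replicate 2 of the light-adapted photoreceptor group was left out and 6 when replicate 2 of its dark-adapted group was.

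In the inner nuclear layer, which holds bipolar, horizontal, amacrine and Müller cell bodies, 3 of the 33 genes were called lower and none higher. Its mean was set against that of the other 3 layers, of which the photoreceptor layer is 1. Hk2, Aldoa and Eno2 were lower, by -0.87 ± 0.19, -0.72 ± 0.16 and -0.75 ± 0.16 (adjusted p = 0.044, 0.044 and 0.037), against 0.611% of all genes called, 0.252% as higher and 0.359% as lower. Aldoa was at 323.5 and 563.3 in dark and 351.3 and 504.6 in light in this layer, against 463.6, 715.8 and 875.4 (lowest, median, highest) in the other 3, with overlap. The median over the 33 genes was -0.24, against 0.00 over all genes, and 8 of the 33 differences were positive. On its RefSeq-listed probe set Pkm was also lower (-0.67 ± 0.12, adjusted p = 0.016), while its brighter one was not called (-0.39, adjusted p = 0.27). The calls of Hk2, Aldoa and Eno2 sat close to the threshold: no gene remained without the arrays with Y-linked signal, 1 (Eno2) with both light-adapted inner plexiform arrays left out, and 0 or 1 when any of 15 single arrays was left out. The other 5 arrays, each of which could be left out with 2 or 3 genes still called, were replicate 1 of both ganglion cell groups, replicate 2 of the dark-adapted inner nuclear group and both dark-adapted inner plexiform arrays.

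In the inner plexiform layer, where the inner neurons form synapses, 1 of the 33 genes was called, against 13.6% of all genes (8.29% higher and 5.29% lower). Slc16a1 was at 24.4 and 22.7 in dark and 21.5 and 15.7 in light there, and lower by -0.86 ± 0.27 (adjusted p = 0.043). These values are under the log2 value of 5 required for testing. Slc16a1 passed that filter through the photoreceptor layer, which is on the other side of this contrast, and the whole retina. Its range of 15.7 to 24.4 overlapped with the inner nuclear (20.9 to 38.9) and ganglion cell (16.7 to 31.1) layers. The call was lost when the layer's own light-adapted arrays or the Y-positive arrays were left out, and it was kept in 13 of 32 alternatives. Single arrays also decided it: 0 genes were called without replicate 2 of the light-adapted or either replicate of the dark-adapted photoreceptor arrays, without either light-adapted inner nuclear array, without replicate 2 of the light-adapted or either replicate of the dark-adapted ganglion cell arrays. There were 2 or 3 called genes without replicate 1 of the light-adapted photoreceptor or ganglion cell arrays or replicate 2 of either inner plexiform group. Pgam2, the muscle mutase gene, was at 135.9 and 66.9 in dark and 58.4 and 227.0 in light and did not pass (0.84, adjusted p = 0.056).

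In the ganglion cell layer Eno2 was higher and Hk2 lower, against 1.87% of all genes called (1.17% higher and 0.704% lower). Eno2, known as neuron-specific enolase, was at 228.1 and 329.1 in dark and 264.9 and 298.0 in light there. In the other 3 layers it had a low of 85.4, a median of 126.4 and a high of 186.6, with no overlap, and the mean was 2.17-fold higher (1.12 ± 0.16, adjusted p = 0.0010). Ganglion cell markers moved with it, with summed intensities of 1701 to 2949 in this layer, against 347.9 to 882.3 in the other 3, and their part in the Eno2 difference was not tested. Hk2 was lower by -1.28 ± 0.19 (adjusted p = 0.0015), a contrast in which the photoreceptor layer stands on the other side. Aldoc, Tpi1 and Slc2a3 had positive differences of 0.64, 0.62 and 0.54 that did not pass (adjusted p = 0.22, 0.14 and 0.17). Both calls were lost when the Y-positive arrays were left out, which leaves this layer its dark-adapted arrays alone. Without replicate 2 of its light-adapted arrays 4 genes were called.

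Pairs of isozymes were also compared within each array, where the scaling of the array cancels. For each of 9 pairs the log2 difference between 2 probe sets was taken per array, and its mean in a layer was set against the other 3 layers by an exact two-sided permutation test within light and within dark arrays (784 arrangements, smallest possible p = 0.0013). The sign of such a difference does not say which isozyme is more abundant, since probe sets differ in brightness, but its shift between layers shows unequal change. Of 36 tests 5 passed after Benjamini-Hochberg adjustment, all in the photoreceptor layer. Pfkfb2 minus Pfkfb3 was 3.64 to 3.82 in the 4 photoreceptor arrays and 0.84 to 2.78 in the other 12 (shift 1.96, exact permutation p = 0.0013, adjusted p = 0.011). Pfkm minus Pfkl was -0.85 to -0.13 there and 0.14 to 1.18 elsewhere (shift -1.06, exact permutation p = 0.0013, adjusted p = 0.011). Ldhb minus Ldha was -3.23 to -2.39 there and -2.34 to -0.85 elsewhere (shift -1.20, exact permutation p = 0.0013, adjusted p = 0.011). This holds for the brighter Ldhb probe set. On the dimmer one the groups overlap. There replicate 1 of the light-adapted photoreceptor layer had Ldhb at 35.7 and Ldha at 412.2. Replicate 2 of the light-adapted inner plexiform layer had 24.6 and 298.9. Aldoc minus Aldoa averaged -2.30 ± 0.21 there and -1.51 ± 0.35 elsewhere (SD, n = 4 and 12), with overlap (shift -0.79, exact permutation p = 0.0026, adjusted p = 0.018).

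The fifth pair was Hk2 minus Hk1, and its call depended on the Hk1 probe set. With the brighter probe set the shift in the photoreceptor layer was 2.10 (exact permutation p = 0.0013, adjusted p = 0.011). With the RefSeq-listed one it was 1.12 (exact permutation p = 0.0077, adjusted p = 0.055): the difference was -0.48 to -0.21 in the photoreceptor arrays and -2.57 to -0.32 in the others. Hk2 minus Hk1 thus overlapped between layers while each of the 2 genes, on that probe set, did not. The glucose transporter pair Slc2a3 minus Slc2a1 shifted by -0.77 in the photoreceptor layer (exact permutation p = 0.019, adjusted p = 0.10). None of the 5 calls remained without the arrays with Y-linked signal, where fewer arrangements can be drawn.

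**Figure D3:**
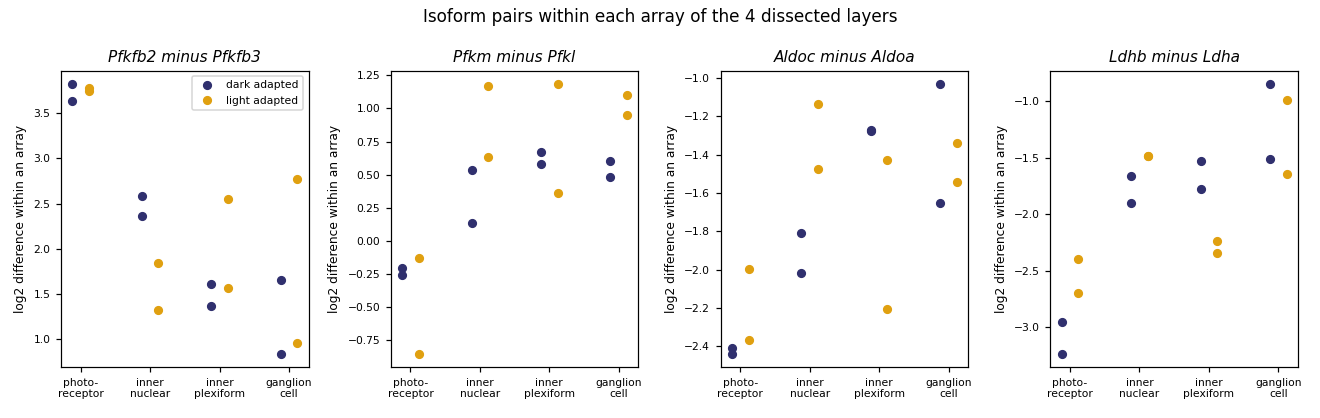
Log2 difference between the 2 isozymes of a pair within each array of the 4 dissected layers, 1 point per array, dark-adapted left of light-adapted. The photoreceptor arrays lie above all others for Pfkfb2 minus Pfkfb3 (3.64 to 3.82), below all others for Pfkm minus Pfkl and Ldhb minus Ldha, and overlap with the other layers for Aldoc minus Aldoa. Ldhb is drawn from its brighter probe set.

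The whole retina, 4 arrays, was set against the mean of the 4 layers, 16 arrays. Of the 33 genes 8 were higher and 3 lower, but 48.5% of all genes were called in this comparison (19.9% higher and 28.6% lower) and the median over all genes was -0.18, so the count says little about these genes. Beside that shift the 4 largest differences were those of Pfkfb2 (2.09 ± 0.25), Slc16a1 (1.40 ± 0.26), Hk2 (1.18 ± 0.18) and Ldha (1.02 ± 0.14), all of which were also high in the photoreceptor layer. Ldha was at 615.4 and 677.4 in dark and 539.1 and 625.9 in light in the whole retina, against 412.2 to 553.9 in the photoreceptor layer, while Hk2, at 156.4 to 209.7, lay below all photoreceptor arrays. Pfkp was higher by 0.90 ± 0.24 (adjusted p = 0.0067) with 344.1 to 570.6 in the whole retina, and it was not called in any layer against the other 3. Slc16a1 varied most between replicates there, at 60.3 and 141.5 in dark and 43.7 and 146.1 in light, with replicate 2 high in both. Pfkfb4, Pgam2 and Slc16a8 were lower by -0.40 ± 0.14, -0.68 ± 0.27 and -0.39 ± 0.14. Without replicate 2 of the light-adapted whole retina 6 genes were called.

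Dark adaptation raises the energy use of photoreceptors, because the light-sensitive current then flows, and dark-adapted arrays were set against light-adapted ones in each tissue (2 against 2). None of the 33 genes was called in any tissue. The share of all genes called was 0.0465% for the photoreceptor layer and 0% for the inner nuclear layer. It was 1.83% for the inner plexiform layer, 0.00664% for the ganglion cell layer and 0.0266% for the whole retina. Averaged over the 5 tissues (10 arrays against 10) 0 of the 33 and 0.0133% of all genes were called. The F test for a dark effect that differs between tissues called 0 of the 33 and 0.0266% of all genes. At an unadjusted p under 0.05, limma gave 0 of the 33 genes for photoreceptors, inner nuclear layer, whole retina and average, 4 for the inner plexiform layer, 2 for the ganglion cell layer and 1 for the F test. In the inner plexiform layer these were the brighter Hk1 probe set (0.60), Ldhb (0.54), Pygb (0.54) and Slc16a3 (-0.49), each with an adjusted p of 0.18 to 0.24, while 18.7% of all genes had an unadjusted p under 0.05 there. In the ganglion cell layer they were Ldha (-0.64) and Ldhb (-0.51), both with adjusted p = 1.

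The intervals say what sizes these arrays leave possible. In the photoreceptor layer Hk2 differed by 0.21 between dark and light (95% interval -0.47 to 0.90), Pfkfb2 by 0.29 (-0.67 to 1.25), Ldha by 0.21 (-0.31 to 0.74) and Slc16a1 by -0.02 (-1.01 to 0.96). Averaged over the tissues the differences ran from -0.18 for Pygm to 0.29 for Pgk1. The averaged intervals of all 33 genes lay between -0.66 and 0.66, with that of Pdk3 the widest (-0.66 to 0.56). Others were narrower, such as -0.07 to 0.37 for Hk1 on its brighter probe set and -0.25 to 0.14 for Ldhb. Y-linked signal was present in 5 light-adapted arrays and in no dark-adapted one. Leaving them out removes both light-adapted ganglion cell arrays. It also removes replicate 1 of the light-adapted photoreceptor layer, inner nuclear layer and whole retina. In the ganglion cell layer the part of that signal therefore cannot be told apart from that of light. No inner plexiform array carried the signal. In the photoreceptor layer, inner nuclear layer and whole retina only replicate 2 of the light-adapted group lacked it, and its part there was not tested. The average over the tissues includes all of these.

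**Figure D4:**
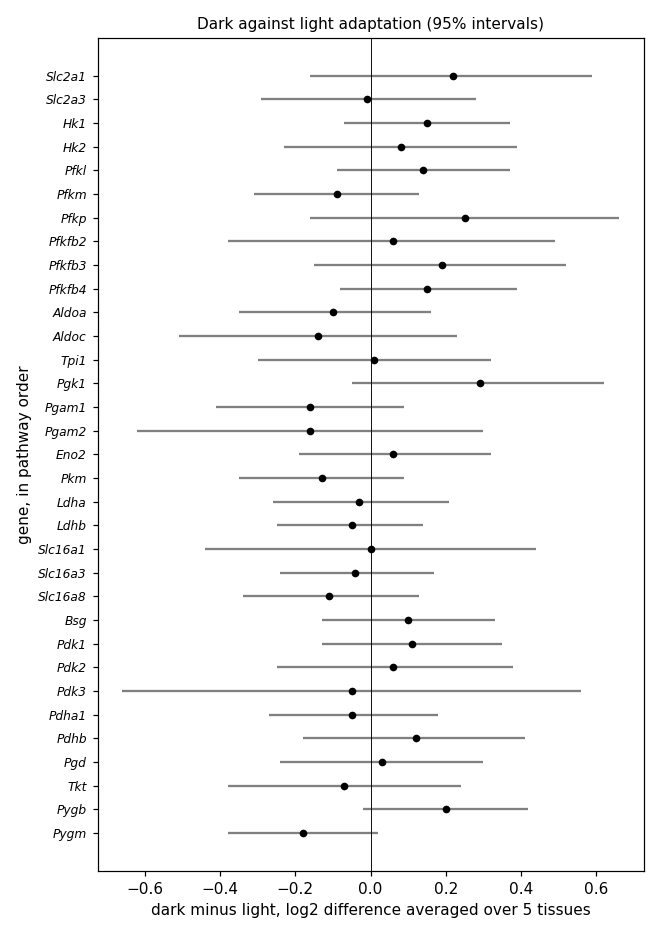
Log2 difference, dark minus light, averaged over the 5 tissues for each of the 33 tested genes (rows, in pathway order), with 95% intervals from the fit as lines. The points lie between -0.18 and 0.29, and every interval crosses 0.

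Other genes of the same pathways were taken from lists of 81 genes, of which 59 were tested. In the photoreceptor layer 5 were higher and 3 lower, shares near the 7.26% higher and 5.69% lower among all genes, so the counts do not set these genes apart. None was called in the averaged dark comparison, against 0.0133% of all genes. Nxnl1, which encodes the rod-derived cone viability factor known to promote glucose uptake by cones through basigin, was at 173.3 to 226.7 in the photoreceptor layer, with a difference of 1.49 ± 0.17 (adjusted p = 1.6e-05). Hif1a, the oxygen-regulated transcription factor that drives glycolytic genes in hypoxia, was at 378.0 to 426.5 there (1.27 ± 0.31, adjusted p = 0.011). Nxnl2, a paralogue of Nxnl1, was higher by 0.95 ± 0.18 and the carrier gene Slc16a6 by 0.89 ± 0.15. Egln1, the prolyl hydroxylase that marks HIF1A for breakdown, was higher by 0.63 ± 0.13. The lower genes were Mpc1, a subunit of the mitochondrial pyruvate carrier (-0.90 ± 0.20), Minpp1 (-0.83 ± 0.23) and pyruvate carboxylase Pcx (-0.51 ± 0.12), an enzyme of glia in neural tissue. Mpc1 was at 25.3 to 57.9 in the photoreceptor layer and at 86.1 to 156.9 in the inner plexiform layer, where it was higher than in the other 3 layers by 1.05 ± 0.20. Emb, which encodes embigin, the other chaperone of the lactate carriers, was higher in the ganglion cell layer by 1.74 ± 0.29 (adjusted p = 0.0037), at 35.5 and 47.9 in dark and 20.4 and 76.7 in light, with overlap with the other layers.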

How the data were processed

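RNA of 20 retina samples was hybridised to Affymetrix gene arrays after 2-cycle labelling, per the labels' protocols. The deposited intensity of each probe set was made by the authors with GCRMA, per the submitters' processing notes (version not given in the sources used here). The linear scale was read from the values, with 11.3% to 14.1% of an array under 8. All values were floored at 8 before the log2 step. A gene was its brightest probe set with 1 platform symbol (21789 of 35557 probe sets had 1, 1621 several). A single limma fit (3.58.1, R 4.3.3) held 10 group means and an intensity trend, with two-sided tests, Benjamini-Hochberg adjustment over 15057 genes, a threshold of 0.05 and 10 residual degrees of freedom. Differences carry the standard error of the fit and intervals are 95%. The fit was tested on simulated data. Isozyme pairs were tested by exact permutation. The members and lists were chosen with earlier results of these data known, and no list result is independent support. Members called in a comparison were given by array, at most 4 a role by smallest p, and of the other pathway genes up to 3 a direction in the photoreceptor comparison; Emb, Egln1, Slc16a6 and Mpc1 in other layers were named after their values were seen. Promoters are RefSeq (GRCm38.p6), matched by symbol for 31 of 33 genes. Alternatives were quantile and median scaling, other filters, the mean of probe sets, log2 of the value plus 16, no trend, the replicate number as a block, only the arrays of a comparison, and leaving out arrays; the RefSeq-listed probe sets were added after seeing the data. The number of arrays limits the precision.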

Additional observations from a re-analysis of the deposited data

Results flagged for a closer look

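In each tissue the 4 arrays were examined for 1 value far from the other 3, over 165 sets of gene and tissue. There were 8 such values among the 165 sets, near the 1 in 20 that chance gives, so their number does not stand out. In the photoreceptor layer Hk2 was at 220.3 in replicate 1 of the light-adapted group, against 286.7 to 302.2 in the other 3 arrays; the array also carries Y-linked signal. Slc2a3 was at 23.1 in replicate 1 of the light-adapted inner nuclear layer, against 31.6 to 32.5. Pfkfb2 was at 62.9 in replicate 1 of the dark-adapted inner plexiform layer, against 112.3 to 123.3. Bsg was at 188.0 in the ganglion cell layer (dark-adapted replicate 2), against 154.9 to 159.3, and Slc16a8 there at 55.3 (light-adapted replicate 2), against 49.1 to 49.4. In the whole retina replicate 1 of the light-adapted group had Pgk1 at 283.9, against 431.8 to 454.1, and Slc16a8 at 49.4, against 35.4 to 36.8. Replicate 2 of the same group had Pygb at 45.0, against 65.2 to 70.1.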

How the results depend on the processing

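Over 56 gene differences named in the text and 1772 alternative values, 1506 kept their direction and their call, 266 lost the call and 0 reversed; the cause of the losses was not tested. Counts of called genes that moved by more than 1.5 times were as follows. Leaving out the 5 arrays that carry Y-linked signal leaves some tissues with 1 adaptation state only. The photoreceptor layer against the other 3 then gave 5 in place of 11, the inner nuclear layer 0 in place of 3, the inner plexiform layer 0 in place of 1 and the ganglion cell layer 0 in place of 2. The photoreceptor layer against the inner nuclear, inner plexiform and ganglion cell layers gave 4, 6 and 5 in place of 9, 10 and 9, and the isozyme pairs 0 in place of 5. Leaving out both light-adapted inner plexiform arrays, the inner nuclear count was 1, the inner plexiform count 0, the photoreceptor against inner plexiform count 3, and the count higher than in each other layer 3 in place of 5. The inner nuclear count was 0 with no filter, with no intensity trend and with only the arrays of the comparison. The inner plexiform count was 2 with the mean of probe sets, 0 with log2 of the value plus 16 and 2 with the RefSeq-listed probe sets. A filter at a log2 value of 7 gave 4 in the ganglion cell layer and 7 in place of 11 in the whole retina. With single arrays left out the ranges were 7 to 13, 0 to 3, 0 to 3 and 2 to 4 for the photoreceptor, inner nuclear, inner plexiform and ganglion cell layers. They were 5 to 9, 4 to 11 and 6 to 10 for the photoreceptor layer against those 3 layers singly, 6 to 13 for the whole retina, 3 to 5 for the count higher than in each layer and 4 to 6 for the isozyme pairs. The 7 dark comparisons gave 0 in every alternative run. With the replicate block, the count was 14 for the photoreceptor layer, 6 for the inner nuclear layer, 4 for the inner plexiform layer and 7 for the ganglion cell layer, in place of 11, 3, 1 and 2. The labels do not say that a replicate number marks shared animals, and the correlation of replicate differences between groups was 0.0059 to 0.479 over 45 pairs of groups, with 32 over 0.1, so the numbers were not used as pairs. The number of arrays, with 10 residual degrees of freedom, limits all of these.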

Other observations

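Replicate 2 was higher than replicate 1 in at least 9 of the 10 groups for 6 of the 33 genes: Slc2a1, Aldoa, Pkm, Ldha, Pdk2 and Pdha1. Pdk2 was higher in 10 of 10 groups with a median log2 difference of 0.32, and Slc2a1 in 9 of 10 with 0.51. For Hk2 replicate 2 was higher in 2 of the 10 groups. These are differences between arrays of the same group.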
